A study of Homo sapiens with 12 samples.

Results

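The BCL2 family of apoptosis regulators was followed through 10 of its genes in SW1736, an established cell line of anaplastic thyroid cancer. The members were taken by symbol: BCL2, BCL2L1, MCL1, BAX, BAK1, BCL2L11, BBC3, PMAIP1, BID and BIK. All 10 were among the 56832 gene symbols of each count table, and all 10 passed the filter on low counts. The cells were transduced with pCDH-TRB, which carries thyroid hormone receptor beta (TRB), or with the empty vector (EV). All cultures were first starved of hormone for 24 h in medium with charcoal-stripped serum. They then received triiodothyronine (T3, the active thyroid hormone) at 10 nM, or its NaOH vehicle, for 24 h. RNA sequencing covered 4 groups of 3 libraries each: EV with vehicle, EV with T3, TRB with vehicle and TRB with T3. The labels give a stable TRB line and do not say whether replicates were separate cultures, so the p-values measure only the spread between these libraries, which may be technical.

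BCL2 family proteins decide whether the outer mitochondrial membrane is opened during apoptosis. Anti-apoptotic members (BCL2, the BCL2L1 product BCL-XL, and MCL1) hold the pore-forming effectors BAX and BAK1 in check. BH3-only members, among them BIM (BCL2L11), PUMA (BBC3), NOXA (PMAIP1), BID and BIK, bind the anti-apoptotic members or the effectors and tip the balance towards pore formation. Much of the control of these proteins is exerted after transcription, which counts of RNA do not show.

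Counts within genes totalled 3819306 to 13086717 per library. The vector label was checked on THRB, which encodes the supplied receptor: it lay between 12.3 and 18.3 CPM (library-size-scaled counts with TMM factors) in the 6 EV libraries and between 79.8 and 322 CPM in the 6 TRB libraries. Of the markers of the thyroid follicular cell 4 of 8 had a mean above 1 CPM (PAX8, NKX2-1 and HHEX among them), 2 were at 0 in every library, and the summed level of the list was 3.78 to 12.4 CPM. All 6 epithelial markers exceeded 1 CPM, none of the 3 endothelial markers did, and of the leukocyte markers only CD14 did. TRB with T3 replicate 2 stood apart from the other 11 libraries. Alignments that were not unique made up 19.0% of its tally against 33.1% to 92.0% in the others, and reads outside genes 24.4% against 2.14% to 17.2%. The members' results are therefore taken from a fit of all 12 libraries and from a fit of 11 without that library, which leaves TRB with T3 at 2 libraries. The biological coefficient of variation was 0.329 with 12 libraries and 0.131 with 11. A gene is said to have passed where its adjusted p (edgeR quasi-likelihood test, Benjamini-Hochberg over all genes tested) was under 0.05.

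Per kilobase of exon, BCL2L1 and MCL1 had the highest RNA levels of the 10 members and BCL2 the lowest. In EV cells with vehicle the median level was 155 CPM per kb for BCL2L1, 69.8 for MCL1 and 19.5 for BAX. BID followed at 9.12, PMAIP1 at 6.25, BCL2L11 at 4.93, BAK1 at 4.36 and BBC3 at 3.07. BIK stood at 0.686 and BCL2 at 0.417 CPM per kb. The libraries of neighbours in this order did not overlap, except for PMAIP1 and BCL2L11. In EV cells with T3, BAK1 had moved above BCL2L11 and PMAIP1 below it, but the libraries of BAK1 and BCL2L11 overlapped, as did those of PMAIP1 and BBC3. In TRB cells with vehicle BAK1, PMAIP1 and BCL2L11 each overlapped the next, down to BBC3. BCL2L1, MCL1 and BAX kept the first 3 places and BCL2 the last in all 4 groups, by median. In TRB with T3 nearly all neighbours overlapped once replicate 2 was included, where BCL2L1 was at 25.8 CPM per kb against 134 and 143 in the other libraries and MCL1 at 114 against 58.7 and 59.0.

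With T3, TRB cells had less BCL2 RNA, whether or not replicate 2 was included. Without replicate 2 they also had less RNA for the BH3-only genes PMAIP1 and BBC3 and more for the effector BAK1. The remaining members, BCL2L1, MCL1, BAX, BCL2L11, BID and BIK, passed in neither fit. With 12 libraries 1 of the 10 members passed, against 14.7% of all genes tested, and with 11 libraries 4 passed, against 33.3%. Of these 4, 3 were lower and 1 was higher, where 15.2% of all genes were lower and 18.1% higher. The median log2 fold change of the members was -0.47 with 12 libraries and -0.13 with 11, and that of all genes 0.01 and -0.01. In EV cells, which lack the supplied receptor, PMAIP1 fell in the 11-library fit and no member passed in the 12-library fit. That is 1 of 10 members where 7.33% of all genes passed, and 0 of 10 where 0.229% did. In the 12-library fit 1 member had an unadjusted p under 0.05 for T3 in EV cells, against 881 of 14431 genes. DESeq2 called none there, where 1.05% of its tested genes passed. The comparisons in TRB and EV cells share no libraries. In RNA of whole cultures a change in every cell and a change in some of the cells cannot be told apart.

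**Figure D1:**
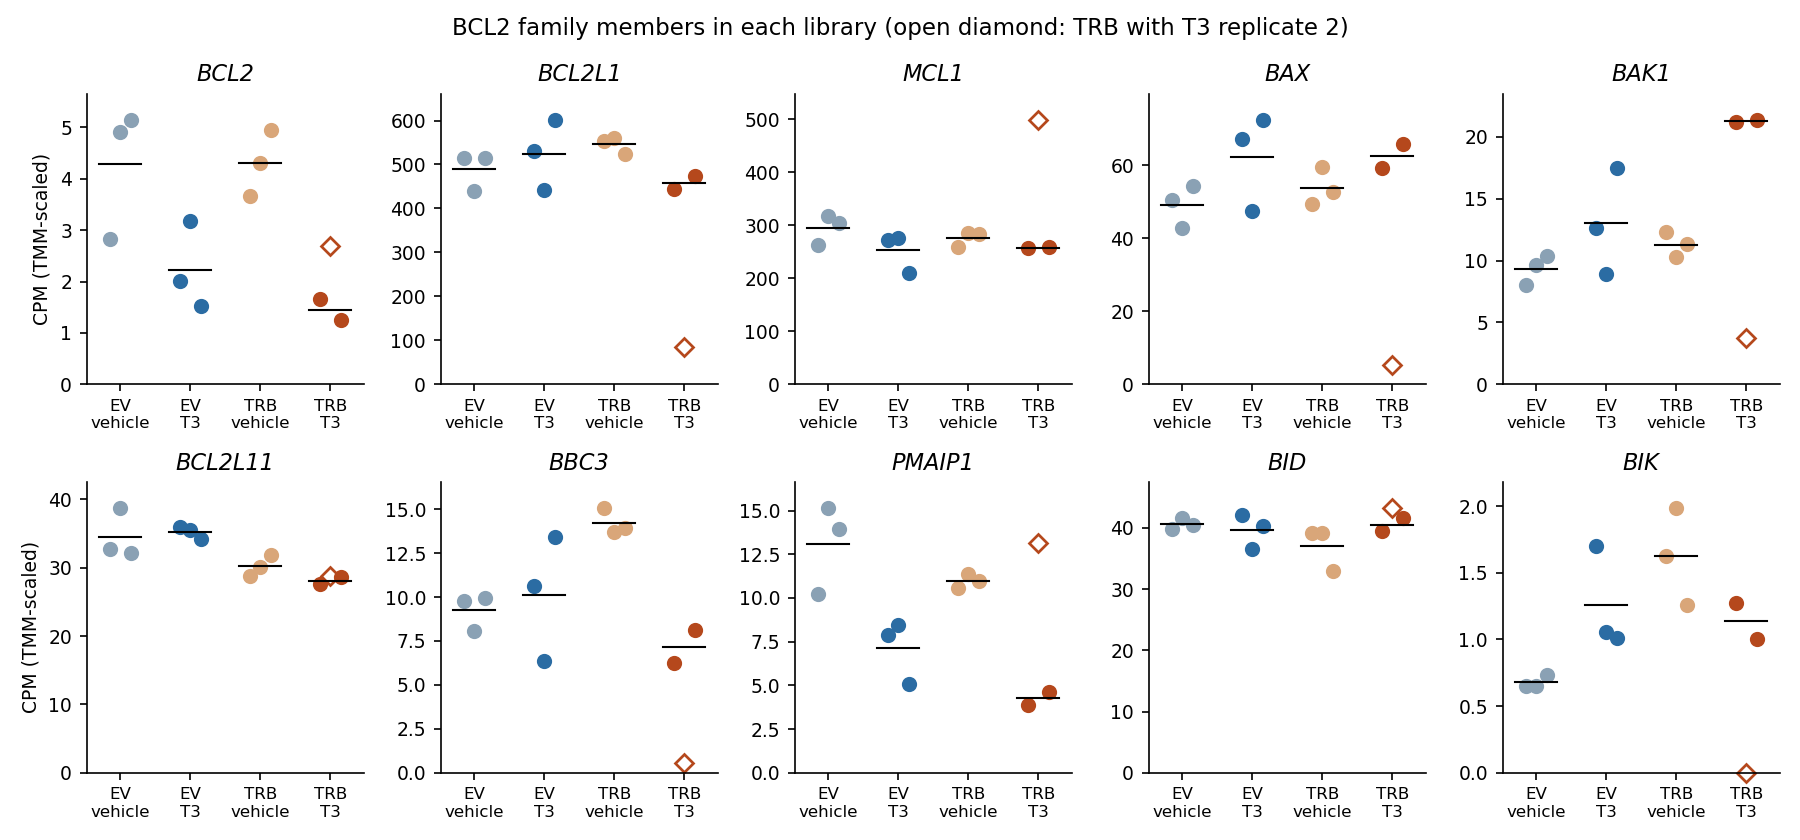
BCL2 family RNA in each of the 12 libraries, in TMM-scaled CPM on linear axes that start at 0. Filled points are libraries, the open diamond is TRB with T3 replicate 2, and the line is the mean of the filled points in a group. The diamond lies far below the other TRB with T3 libraries for BCL2L1, BAX, BAK1, BBC3 and BIK, and above them for BCL2, MCL1 and PMAIP1.

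The stretches of 250 bases before the annotated start of the 4 genes that passed in the 11-library fit are shown, so that their sequence can be set beside the T3 effect. They come from RefSeq (GRCh38.p14), which held entries for 8 of the 10 members, with 13 windows, and none for MCL1 and BIK. Each is written 5′ to 3′ on the strand of the gene, and capitals mark the E-box CACGTG. The positions are chr18:63319770-63320019 (minus strand) for BCL2, chr18:59899746-59899995 (plus) for PMAIP1, chr19:47232668-47232917 (minus) for BBC3 and chr6:33580277-33580526 (minus) for BAK1. The RefSeq starts differ from those of GENCODE, which gave the gene positions. By GENCODE the BCL2 window lies wholly inside the gene, and the windows of PMAIP1, BBC3 and BAK1 run past the gene start.
BCL2: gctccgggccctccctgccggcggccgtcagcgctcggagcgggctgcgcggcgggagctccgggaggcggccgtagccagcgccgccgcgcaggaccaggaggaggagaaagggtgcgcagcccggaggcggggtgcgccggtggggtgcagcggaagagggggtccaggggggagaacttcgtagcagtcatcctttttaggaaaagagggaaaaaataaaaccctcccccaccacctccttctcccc
PMAIP1: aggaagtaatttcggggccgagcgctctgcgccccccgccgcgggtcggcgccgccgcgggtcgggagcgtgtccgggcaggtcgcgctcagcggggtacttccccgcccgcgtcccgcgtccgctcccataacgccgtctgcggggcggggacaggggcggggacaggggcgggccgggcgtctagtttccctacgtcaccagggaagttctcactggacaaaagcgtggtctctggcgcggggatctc
BBC3: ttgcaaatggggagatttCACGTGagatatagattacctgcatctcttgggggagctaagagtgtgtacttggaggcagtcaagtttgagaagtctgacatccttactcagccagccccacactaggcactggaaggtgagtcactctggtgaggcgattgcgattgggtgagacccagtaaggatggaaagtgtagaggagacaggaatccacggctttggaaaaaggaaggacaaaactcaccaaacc
BAK1: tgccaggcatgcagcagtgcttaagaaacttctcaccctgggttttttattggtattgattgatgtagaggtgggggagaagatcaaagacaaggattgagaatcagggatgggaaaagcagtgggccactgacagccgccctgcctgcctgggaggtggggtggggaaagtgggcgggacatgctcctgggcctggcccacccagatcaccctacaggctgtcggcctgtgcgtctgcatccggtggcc
Motifs were searched on both strands. The receptor half-site AGGTCA was in none of the 13 member windows, where 12.1% of all 35116 windows held it. Its direct repeat with a 4-base spacer, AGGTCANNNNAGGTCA, was likewise in none, and in 0.0142% of all windows. CACGTG was in 4 of the 13 member windows, of 3 members, against 6.34% of all windows: 4 matches in that of BAX, 1 in that of BBC3 and 1 in each of a pair of overlapping windows of BID. The GC box GGGCGG was in 8 of the 13 member windows, of 5 members, against 42.6% of all windows, with 4 matches in that of PMAIP1, 2 in that of BAK1 and 0 in those of BCL2 and BBC3. TATAAA was in 1 of the 13, a window of BCL2L1, against 10.7%. A match is a description of the letters, and no match says only that these letters are not in this window.

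BCL2, the founding anti-apoptotic member, lies at chr18:63123346-63320128 (GRCh38, minus strand). It stood at 3.66, 4.31 and 4.95 CPM in TRB cells with vehicle and at 1.65, 2.698 and 1.25 CPM with T3, in the order of replicates 1 to 3. The groups did not overlap, and replicate 2 was the highest of the T3 libraries. The log2 fold change was -1.25 (SE 0.35, edgeR adjusted p 0.0363) with 12 libraries and -1.48 (SE 0.32, edgeR adjusted p 0.00339) with 11. In EV cells it stood at 2.82, 4.90 and 5.15 CPM with vehicle and at 2.01, 3.17 and 1.52 CPM with T3, where EV with T3 replicate 2 lay above EV with vehicle replicate 1. The change in EV cells was -0.91 (SE 0.35, edgeR adjusted p 0.689) with 12 libraries and -0.90 (SE 0.29, edgeR adjusted p 0.077) with 11. BCL2 had only 6 to 60 counts per library. The 12-library call for T3 in TRB cells survived in 4 of 12 leave-one-out fits and was lost in 8, with an edgeR adjusted p up to 0.117. The 8 were those without EV with vehicle replicates 2 and 3, EV with T3 replicate 1, TRB with vehicle replicates 1, 2 and 3, and TRB with T3 replicates 1 and 3. The log2 fold change stayed between -1.48 and -1.03 in all 12. The call was also lost with the compared groups alone and with no filter on low counts.

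BCL2L1, whose main product BCL-XL is anti-apoptotic and whose short splice form is pro-apoptotic, did not pass in either fit. It stood at 553, 561 and 523 CPM in TRB cells with vehicle and at 443, 85.4 and 474 CPM with T3. All T3 libraries lay below all vehicle libraries, replicate 2 by the widest margin. The log2 fold change was -0.71 (SE 0.46, edgeR adjusted p 0.315) with 12 libraries and -0.20 (SE 0.13, edgeR adjusted p 0.244) with 11. In EV cells it stood at 516, 441 and 514 CPM with vehicle and at 530, 442 and 601 CPM with T3, which overlapped. The antisense gene ABALON shares 43% of the exon bases of BCL2L1. Since the strand setting of the counting is not given in the sources used here, it is not known how reads in the shared bases were counted.

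MCL1, a short-lived anti-apoptotic protein that BIM, PUMA and NOXA bind, showed no change past the threshold. It stood at 258, 286 and 284 CPM in TRB cells with vehicle, and at 256, 499 and 258 CPM with T3. Replicate 2 lay far above the vehicle libraries, and replicates 1 and 3 lay below them by a narrow margin. The fitted change was 0.29 (SE 0.25) with 12 libraries and -0.05 (SE 0.13) with 11, so its sign turned with that library (edgeR adjusted p 0.444 and 0.791). In EV cells it stood at 263, 317 and 305 CPM with vehicle and 273, 276 and 210 CPM with T3, which overlapped.

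Of the effectors, BAK1 rose with T3 in TRB cells without replicate 2 and BAX did not pass. BAK1 stood at 12.3, 10.3 and 11.3 CPM with vehicle and at 21.2, 3.78 and 21.4 CPM with T3. Replicates 1 and 3 lay above all vehicle libraries and replicate 2 below all of them. The change was 0.47 (SE 0.49, edgeR adjusted p 0.526) with 12 libraries and 0.96 (SE 0.20, edgeR adjusted p 0.00223) with 11. In EV cells BAK1 stood at 8.04, 9.64 and 10.4 CPM with vehicle and at 12.7, 8.88 and 17.5 CPM with T3. The groups overlapped, and the change of 0.39 (SE 0.20) did not pass with 11 libraries (edgeR adjusted p 0.217). GGNBP1, on the other strand, shares 4.11% of the exon bases of BAK1.

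BAX stood at 49.4, 59.5 and 52.6 CPM in TRB cells with vehicle and at 59.3, 5.40 and 65.8 CPM with T3. The groups overlapped, and replicate 2 held the lowest BAX level of all 12 libraries. The fitted change was -0.30 (SE 0.61, edgeR adjusted p 0.752) with 12 libraries and 0.26 (SE 0.17, edgeR adjusted p 0.26) with 11, with opposite signs. In EV cells the levels were 50.4, 42.7 and 54.2 CPM with vehicle and 67.1, 47.4 and 72.4 CPM with T3, and the change of 0.33 (SE 0.15) in the 11-library fit did not pass (edgeR adjusted p 0.177). Per kilobase, the BAX level was 61.4, 62.8 and 48.3 times that of BCL2 in TRB cells with vehicle, and 163, 9.10 and 240 times with T3. In EV cells this ratio was 81.2, 39.6 and 47.9 with vehicle and 152, 68.1 and 217 with T3. The ratio lay above every vehicle library of the same vector in TRB with T3 replicates 1 and 3 and in EV with T3 replicates 1 and 3. BAX has a GC content of 60.4% and BCL2 of 45.7%, and the libraries differed in their trend with GC content. With that trend removed from the 12-library edgeR fit, BAX changed by 0.02 in TRB cells and 0.09 in EV cells. BCL2 then changed by -1.45 and -0.83. How far the ratio depends on this trend was not tested.

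Among the BH3-only members, PMAIP1 fell with T3 in TRB cells and in EV cells when replicate 2 of TRB with T3 was left out. PMAIP1 encodes NOXA, which binds MCL1. It stood at 10.6, 11.4 and 10.995 CPM in TRB cells with vehicle and at 3.90, 13.1 and 4.62 CPM with T3. Replicates 1 and 3 lay below all vehicle libraries and replicate 2 above all of them. The change was -0.64 (SE 0.41, edgeR adjusted p 0.302) with 12 libraries and -1.33 (SE 0.22, edgeR adjusted p 0.0005) with 11. In EV cells it stood at 10.2, 15.1 and 14.0 CPM with vehicle and at 7.87, 8.45 and 5.06 CPM with T3, and these groups did not overlap. The change in EV cells was almost the same in both fits, -0.87 (SE 0.41) with 12 libraries and -0.85 (SE 0.19) with 11. The 12-library fit has the larger standard error, and the edgeR adjusted p was 0.85 with 12 libraries and 0.0228 with 11. The call in EV cells was lost when the EV groups were fitted alone (-0.85, edgeR adjusted p 0.117), and PMAIP1 did not pass there with GC offsets on 12 libraries (edgeR adjusted p 0.087).

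BBC3 encodes PUMA, which binds all the main anti-apoptotic members. It stood at 15.04, 13.7 and 13.9 CPM in TRB cells with vehicle and at 6.23, 0.540 and 8.12 CPM with T3. All T3 libraries lay below all vehicle libraries, and replicate 2 was the lowest by far. The change was -1.47 (SE 0.57, edgeR adjusted p 0.114) with 12 libraries and -0.96 (SE 0.24, edgeR adjusted p 0.00742) with 11. In EV cells BBC3 stood at 9.77, 8.09 and 9.93 CPM with vehicle and at 10.6, 6.34 and 13.4 CPM with T3, overlapping, with a change of 0.07 (SE 0.23, edgeR adjusted p 0.854) in the 11-library fit. The miRNA genes MIR3190 and MIR3191 lie within its exons, on 2.52% and 2.39% of its exon bases.

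BCL2L11, BID and BIK did not pass for T3 in either vector. BCL2L11 encodes BIM, and stood at 28.8, 30.2 and 31.9 CPM in TRB cells with vehicle and at 27.5, 28.8 and 28.6 CPM with T3. Its change was -0.10 (SE 0.15) with 12 libraries and -0.06 (SE 0.12) with 11, and replicate 2 lay close to its partners. BID, which caspase-8 cleaves and which links death receptors to mitochondria, stood at 39.2, 39.2 and 32.9 CPM with vehicle and at 39.5, 43.2 and 41.6 CPM with T3. Its T3 libraries lay above the vehicle libraries by a narrow margin, and the change was 0.16 (SE 0.15) and 0.17 (SE 0.12) in the fits of 12 and 11. BIK stood at 1.63, 1.98 and 1.26 CPM with vehicle and at 1.28, 0 and 0.999 CPM with T3. With 0 to 23 counts per library, BIK allowed no firm statement, and its changes were -0.90 (SE 0.53) and -0.43 (SE 0.32). In EV cells the changes of BCL2L11 and BID were 0.03 (SE 0.11) and -0.04 (SE 0.11) with 11 libraries. BIK stood at 0.652, 0.654 and 0.735 CPM in EV cells with vehicle and at 1.698, 1.06 and 1.01 CPM with T3. These BIK groups did not overlap, and the change of 0.88 (SE 0.37) did not pass (edgeR adjusted p 0.162). The lincRNA MIR4435-2HG, on the other strand, shares 10.9% of the exon bases of BCL2L11.

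Non-overlap of libraries was common among all genes. For T3 in TRB cells it held for 4 of the 10 members with 12 libraries, where 40.8% of all genes did not overlap, and for 8 of 10 with 11, where 66.4% did not. In EV cells it held for 2 members, PMAIP1 and BIK, where 26.9% of the genes of the 12-library fit and 26.5% of those of the 11-library fit did not overlap.

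**Figure D2:**
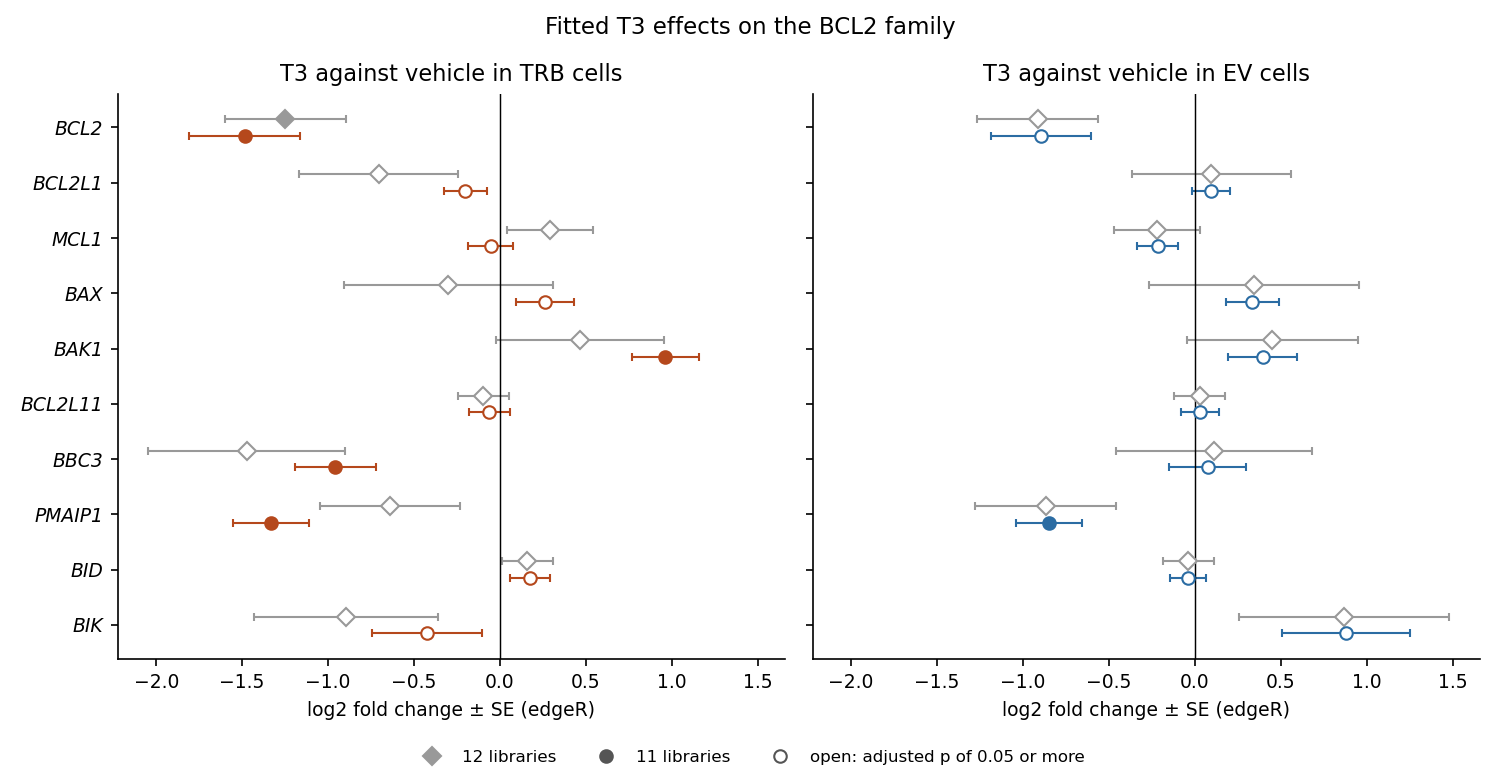
Log2 fold change of T3 against vehicle for each member, with its standard error, in TRB cells and in EV cells. Diamonds are the fit of 12 libraries, circles the fit of 11 without TRB with T3 replicate 2, and filled symbols passed the edgeR threshold. BCL2 in TRB cells is filled in both fits, and BAK1, BBC3 and PMAIP1 only with 11 libraries.

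The departure of TRB with T3 replicate 2 followed the base composition of the transcripts. In log2(CPM + 0.5), replicate 2 differed from the mean of replicates 1 and 3 by 1.52 for PMAIP1, whose transcripts have a GC content of 43.6%. The difference was 0.95 for MCL1 and 0.71 for BCL2, both at 45.7% GC, and near 0 for BCL2L11 (0.04, 46.8% GC) and BID (0.09, 51.6% GC). It was -1.71 for BIK (56% GC), -2.42 for BCL2L1 (56.2% GC) and -2.35 for BAK1 (58.7% GC). BAX (60.4% GC) differed by -3.42 and BBC3 (64.5% GC) by -2.88. Across the 10 members Spearman's rho between this difference and GC content was -0.964 and Pearson's r -0.957. Across the 12130 tested genes with a GC value rho was -0.899. These are descriptions across genes that share the same 3 libraries, and genes are not independent replicates. A GC trend was not confined to this library. For EV with T3, rho between a library's difference from its group partners and GC content was 0.09, -0.84 and 0.82 in replicates 1 to 3. For EV with vehicle it was 0.47, -0.68 and 0.28, and for TRB with vehicle 0.37, -0.27 and -0.26. The 11-library fit keeps all of these libraries. In a further edgeR fit a smooth trend of each library against GC content was taken out, and TRB with T3 replicate 2 was kept. Such a fit also removes any T3 effect that itself follows GC content. Whether replicate 2 then matched its partners was not tested. BAK1 was then higher and BCL2, BBC3, PMAIP1 and BCL2L1 lower with T3 in TRB cells. These were 5 of 10 members where 44.6% of the genes passed. The log2 fold changes were then 0.81 for BAK1, -1.45 for BCL2, -0.996 for BBC3, -1.10 for PMAIP1 and -0.53 for BCL2L1. The same 5 members passed in the same directions with GC offsets on 11 libraries, 5 of 10 where 57% of the genes passed. BCL2L1 then changed by -0.34.

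**Figure D3:**
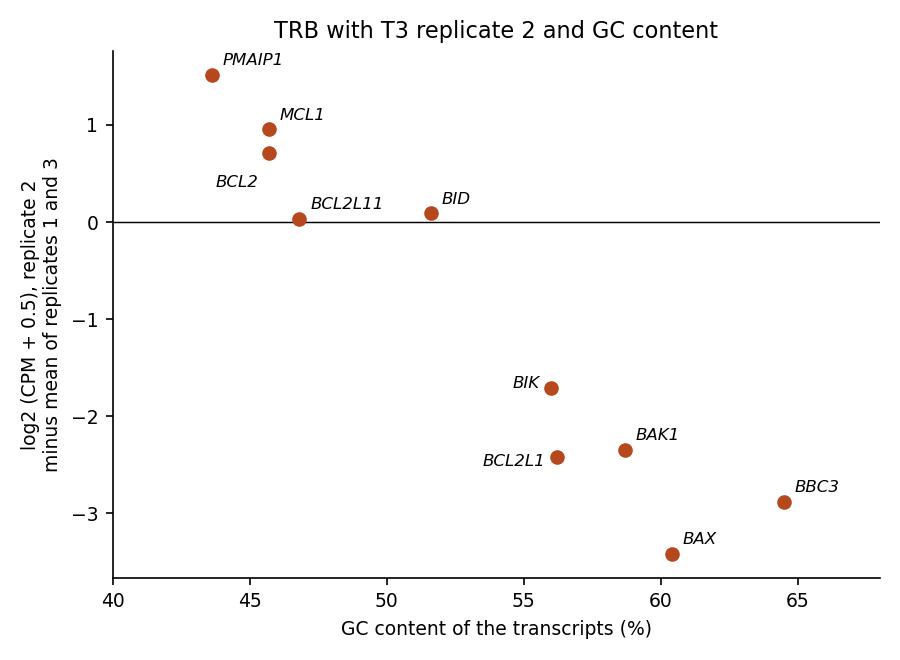
Difference in log2(CPM + 0.5) between TRB with T3 replicate 2 and the mean of replicates 1 and 3. The horizontal axis is the GC content of each member's transcripts in percent. Each point is 1 of the 10 members. Members under 47% GC lie at or above 0, and those of 56% GC and more lie between -1.71 and -3.42.

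The vectors were compared in vehicle to show what the receptor changed without added hormone. No member passed, and BIK and BBC3 had the largest fitted differences, both higher in TRB cells. The log2 difference of BIK was 1.23 (SE 0.56, edgeR adjusted p 1) with 12 libraries and 1.24 (SE 0.32, edgeR adjusted p 0.267) with 11. BBC3 was 0.62 (SE 0.56) and 0.65 (SE 0.21) higher, with edgeR adjusted p 1 and 0.353. In both genes the 3 TRB libraries lay above the 3 EV libraries. The 0 of 10 members stand beside 0.0208% of all genes with 12 libraries and 0.0742% with 11. At an unadjusted p under 0.05 edgeR counted 0 members with 12 libraries and 2 with 11, against 213 of 14431 and 1837 of 14825 genes. DESeq2 called 0 members in either, where 0.0263% and 0.446% of its tested genes passed. Fitted to the 6 vehicle libraries alone, BBC3 and BIK passed, 2 of 10 members where 11.2% of all genes did. BIK met the filter on low counts there only through the TRB libraries, where its level was higher. Its call is therefore no support for a difference. Library ranges did not overlap for 5 members, where 36.3% (12 libraries) and 35.7% (11 libraries) of all genes did not overlap. These were BCL2L1, BBC3 and BIK, higher in TRB cells, and BCL2L11 and BID, lower.

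With T3, BAK1 was higher and PMAIP1 lower in TRB than in EV cells when replicate 2 was left out. BAK1 differed by 0.83 (SE 0.21, edgeR adjusted p 0.0125) and PMAIP1 by -0.76 (SE 0.24, edgeR adjusted p 0.0409). These were 2 of 10 members, where 19.7% of all genes passed. In the 12-library fit no member passed in edgeR where 6.68% of all genes did. There 0 members had an unadjusted p under 0.05, against 3679 of 14431 genes. DESeq2 called 0, where 12.6% of its tested genes passed. The differences in the 12-library edgeR fit were 0.28 (SE 0.49) for BAK1 and -0.04 (SE 0.42) for PMAIP1. Neither passed when these groups were fitted alone, with replicate 2 left out (edgeR adjusted p 0.155 and 0.127). BCL2L11 was the 1 member whose libraries did not overlap with replicate 2 included, lower in TRB cells, where 26.3% of all genes did not overlap. Without replicate 2 BAK1 and PMAIP1 joined it, where 40.5% of all genes did not overlap. BCL2 did not pass between the vectors with T3 (-0.63, SE 0.37, edgeR adjusted p 0.278 with 11 libraries).

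The joint difference of receptor and hormone, TRB with T3 against EV with vehicle, again involved BCL2 in both fits. BCL2 was lower (-1.28, SE 0.35, edgeR adjusted p 0.0432) with 12 libraries, as 1 of 10 members where 10.6% of all genes passed. With 11 libraries BCL2 (-1.53, SE 0.33), PMAIP1 (-1.60, SE 0.22) and BAK1 (1.22, SE 0.20) passed, 3 of 10 members where 33.7% of all genes did. Their edgeR adjusted p was 0.00319, 0.000132 and 0.000545. BBC3, which passed for T3 in TRB cells, did not pass here (-0.31, SE 0.25, edgeR adjusted p 0.361 with 11 libraries). Its level in EV cells with vehicle lay below that in TRB cells with vehicle in every library. The BCL2 call with 12 libraries survived in 4 of 12 leave-one-out fits and was lost in 8, with an edgeR adjusted p up to 0.168, the same 8 libraries as for T3 in TRB cells. It was also lost with RLE size factors, with no filter on low counts and with the compared groups alone. Library ranges did not overlap for 2 members (28.8% of all genes) with 12 libraries and for 7 (64.6%) with 11. This comparison shares its TRB with T3 libraries with the comparisons above.

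Whether T3 acted differently on the members in TRB and EV cells was tested with an interaction term. No member passed with 12 or with 11 libraries, where 2.59% and 15.2% of all genes did. At an unadjusted p under 0.05 there were 0 members with 12 libraries, against 2879 of 14431 genes. With 11 libraries there were 2, BBC3 and BIK, against 4491 of 14825 genes. The T3 effect on BBC3 in TRB cells minus that in EV cells was -1.03 (SE 0.33, edgeR adjusted p 0.0512) with 11 libraries. DESeq2 called BBC3 there, as 1 of 10 members where 16% of its tested genes passed. BIK differed by -1.30 (SE 0.49, edgeR adjusted p 0.0924), BAK1 by 0.57 (SE 0.28, edgeR adjusted p 0.198), PMAIP1 by -0.49 (SE 0.29, edgeR adjusted p 0.286) and BCL2 by -0.59 (SE 0.44, edgeR adjusted p 0.399). In these fits the BCL2 and PMAIP1 effects of T3 are not shown to differ between the vectors. With GC offsets BBC3 (-0.78) and BAK1 (0.64) passed with 12 libraries, 2 of 10 members where 21.1% of all genes did. With GC offsets on 11 libraries PMAIP1 (-0.71) passed as well, where 35.4% of all genes did.

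The other genes of the pathway were followed in 5 lists, and their counts are to be read against the 18.1% of all genes that rose and the 15.2% that fell with T3 in TRB cells with 11 libraries. Median log2 fold changes there were 0.13 for the further BCL2 family genes, 0.10 for the apoptosome and caspases, 0.32 for the death receptor list, 0.11 for the DNA damage response list and 0.11 for the regulators, against -0.01 for all genes. With 12 libraries these medians were -0.19, 0.15, 0.30, 0.53 and -0.21, so the first and the last turned sign. Over all genes, 1233 of 14431 rose and 895 fell with T3 in TRB cells with 12 libraries. In EV cells 558 of 14825 genes rose and 529 fell with 11 libraries, and 30 of 14431 rose and 3 fell with 12. An unadjusted p under 0.05 in EV cells was reached by 4187 of 14825 genes with 11 libraries and by 881 of 14431 with 12. Of 13 further BCL2 family genes 10 were tested with 11 libraries, and 3 rose and 0 fell with T3 in TRB cells. These were BNIP3L, a mitochondrial mitophagy receptor with a BH3-like motif (1.23, SE 0.22), and the BH3-only genes BMF (1.24, SE 0.12) and HRK (1.61, SE 0.40), with an edgeR adjusted p of 0.000959, 5.7e-06 and 0.00729. BMF stood at 30.9, 29.6 and 27.3 CPM in TRB cells with vehicle and at 64.5, 21.9 and 68.7 CPM with T3, so replicate 2 lay below the vehicle libraries. BNIP3L stood at 32.2, 49.0 and 48.1 CPM with vehicle and at 90.7, 268 and 106 CPM with T3, and it passed with 12 libraries too (1.84, SE 0.40, edgeR adjusted p 0.0109). HRK had at most 17 counts in any library and was not tested with 12. It met the filter on low counts with 11 libraries, after a library of TRB with T3 was left out. That is the group where it was called higher, so its rise carries little weight. In EV cells with 11 libraries BMF rose (0.66, SE 0.12, edgeR adjusted p 0.00586) and none of the others of this list passed. With 12 libraries BMF did not pass in TRB cells (edgeR adjusted p 0.13) or in EV cells (edgeR adjusted p 0.894).

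Of 18 genes of the apoptosome, caspases and their inhibitors, 3 rose and 3 fell with T3 in TRB cells with 11 libraries, and 3 rose and 1 fell with 12. The inhibitor of apoptosis genes BIRC3 and BIRC6 rose by 1.00 (SE 0.23) and 0.55 (SE 0.12), with an edgeR adjusted p of 0.00449 and 0.0038. With 12 libraries the calls of BIRC3 and BIRC6 were lost without TRB with vehicle replicate 1, 2 or 3, with an edgeR adjusted p up to 0.0923 and 0.0788. No gene of this list passed in EV cells. There 0 had an unadjusted p under 0.05 with 12 libraries and 7 of 18 with 11, against 4187 of 14825 genes with 11. The interaction passed for BIRC3 (1.45, SE 0.34, edgeR adjusted p 0.0129) with 11 libraries and not with 12 (edgeR adjusted p 0.133).

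In the death receptor list 6 of 12 tested genes rose and 1 fell with T3 in TRB cells with 11 libraries, and 2 rose and 0 fell with 12. TNFSF10, which encodes the death ligand TRAIL, had the largest change: 6.81, 4.998 and 5.88 CPM with vehicle and 179, 487 and 174 CPM with T3. That is a log2 fold change of 4.96 (SE 0.21, edgeR adjusted p 3.78e-09) with 11 libraries and 5.57 (SE 0.47, edgeR adjusted p 2.98e-05) with 12. In EV cells it stood at 6.52, 7.93 and 7.72 CPM with vehicle and at 15.7, 18.6 and 9.62 CPM with T3, a change of 1.02 (SE 0.21, edgeR adjusted p 0.0131) with 11 libraries that did not pass with 12 (edgeR adjusted p 0.74). FADD, the adaptor of death receptors, rose by 0.61 (SE 0.14, edgeR adjusted p 0.00426) and RIPK1 by 0.60 (SE 0.12, edgeR adjusted p 0.0023) in TRB cells with 11 libraries. With 12 libraries RIPK1 passed and FADD did not. The RIPK1 call was lost without TRB with vehicle replicate 1, 2 or 3 (edgeR adjusted p up to 0.109).

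Of 15 tested genes of the DNA damage response list, 4 rose and 3 fell with T3 in TRB cells with 11 libraries, and 3 rose and 1 fell with 12. TP53I3 stood at 16.1, 15.7 and 19.0 CPM with vehicle and at 214, 95.3 and 241 CPM with T3, and TP53INP1 at 2.03, 2.58 and 1.85 and at 18.4, 35.6 and 17.5 CPM. Their changes were 3.80 (SE 0.17, edgeR adjusted p 6.11e-09) and 3.10 (SE 0.20, edgeR adjusted p 1.44e-07) with 11 libraries, and 3.44 (SE 0.34) and 3.45 (SE 0.34) with 12, where both passed. CDKN1A, the cell cycle inhibitor p21, rose by 1.56 (SE 0.18, edgeR adjusted p 2.22e-05) with 11 libraries and did not pass with 12, where replicate 2 held 7.56 CPM against 42.3 and 49.3 in its partners. In EV cells with 11 libraries CDKN1A rose (0.69, SE 0.18, edgeR adjusted p 0.0376) and SESN2 (-0.59) and PERP (-0.56) fell. With 12 libraries no gene of this list passed in EV cells, where CDKN1A, SESN2 and PERP each had an edgeR adjusted p of 0.935, and 0 genes had an unadjusted p under 0.05.

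The last list held regulators of the members' transcription or protein turnover, of which 9 of 10 were found by symbol. With 11 libraries 1 rose and 4 fell in TRB cells, and 0 rose and 3 fell in EV cells. With 12 libraries 0 rose and 2 fell in TRB cells, ATF4 and TRIB3, and none passed in EV cells, where 3 had an unadjusted p under 0.05. The 3 genes that fell in both vectors with 11 libraries belong to the integrated stress response. ATF4, its transcription factor, then fell by 0.72 (SE 0.09, edgeR adjusted p 7.92e-05) on the log2 scale in TRB cells and by 0.42 (SE 0.08, edgeR adjusted p 0.0117) in EV cells. DDIT3, which encodes CHOP, fell by 0.47 (SE 0.16, edgeR adjusted p 0.0348) and 0.90 (SE 0.16, edgeR adjusted p 0.00622). TRIB3, a pseudokinase gene that ATF4 and CHOP induce, fell by 2.39 (SE 0.19, edgeR adjusted p 9.37e-07) and 1.24 (SE 0.16, edgeR adjusted p 0.00072). With 12 libraries the edgeR adjusted p in TRB cells was 0.00528 for ATF4, 0.0564 for DDIT3 and 0.00372 for TRIB3, and in EV cells 0.791, 0.142 and 0.721. TRIB3 stood at 199, 193 and 188 CPM in TRB cells with vehicle and at 31.6, 5.94 and 39.97 CPM with T3. In EV cells its levels were 136, 129 and 140 CPM with vehicle and 65.3, 40.6 and 67.1 CPM with T3. PMAIP1 and BBC3 are known targets of ATF4 or CHOP in other cells, and PMAIP1 fell in both vectors and BBC3 in TRB cells with 11 libraries. In EV cells BBC3 changed by 0.07 (SE 0.23) with 11 libraries, although DDIT3 fell further there than in TRB cells. Whether these changes depend on each other was not tested.

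**Figure D4:**
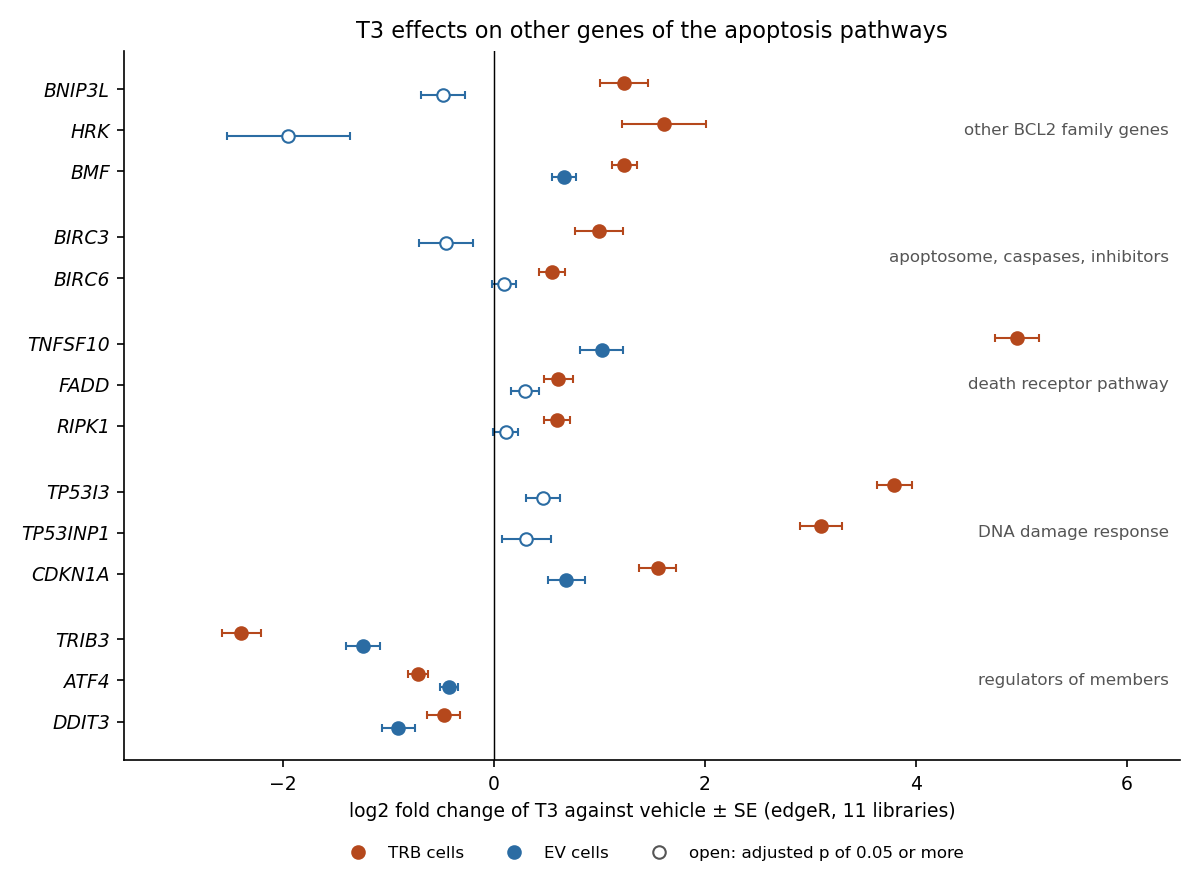
Log2 fold change of T3 against vehicle, with its standard error, for 2 or 3 genes named from each of the 5 pathway lists, in the edgeR fit of 11 libraries. Filled circles passed the threshold, in red for TRB cells and in blue for EV cells. TNFSF10, TP53I3 and TP53INP1 lie farthest to the right in TRB cells, and TRIB3, ATF4 and DDIT3 lie left of 0 in both vectors.

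BCL2 was the 1 member that passed for T3 in TRB cells in both fits, and the genes whose log2 CPM followed it most closely over the 11 libraries were EXOSC8 (Pearson's r 0.974), NFXL1 (0.973) and TBC1D19 (0.968). These libraries share the 4 groups, so a common group pattern is part of each value.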

How the data were processed

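RNA sequencing counts of 12 libraries were analysed, in 4 groups of 3 taken from the labels. Raw counts by gene symbol were deposited by the authors, in 1 table per library. The submitters' processing notes name CASAVA 1.7, STAR 2.7, HTSeq 0.10, DESeq2 and hg38, with no settings. The closing lines for reads outside genes were left out, and the table of normalized values was not used.

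Counts were fitted in R 4.3.3 with edgeR 4.0.16: filterByExpr (minimum count 10, minimum total 15; 14431 genes tested with 12 libraries, 14825 with 11), TMM scaling, a coefficient per group, and quasi-likelihood F tests of 6 contrasts, two-sided, with Benjamini-Hochberg adjustment over all genes tested. Standard errors were derived from the fold change and its F statistic. Correlations used log2 CPM with a prior count of 2. Alternatives were leaving out each library, RLE size factors, no filter, DESeq2 1.42.0, the compared groups alone, a replicate block and GC offsets (spline with 5 degrees of freedom, GC content from GENCODE release 29). The procedure was also run on simulated counts that held no GC trend and no deviating library. That run therefore cannot show how the 12-library fit behaves with TRB with T3 replicate 2. Gene positions and exon lengths are from GENCODE release 29.

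The members and the pathway lists were chosen with earlier results of these data known. Named pathway genes are, per comparison and list, up to 3 with the largest absolute log2 fold change among those past the threshold in either fit, beside the members, THRB as a check, and the 3 genes most alike to a member that passed in both fits. Some genes that this rule or the marker lists name are not reported here.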

Additional observations from a re-analysis of the deposited data

Results flagged for a closer look

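The T3 effect differed between TRB and EV cells, by the interaction test with 12 libraries, for 3 of the genes named from the pathway lists. For TNFSF10 the log2 effect in TRB cells minus that in EV cells was 4.58 (SE 0.58, edgeR adjusted p 0.00303), and 3.94 (SE 0.29) with 11 libraries. For TP53I3 it was 2.94 (SE 0.45, edgeR adjusted p 0.00833), and 3.33 (SE 0.23) with 11 libraries. For TP53INP1 it was 3.15 (SE 0.47, edgeR adjusted p 0.00755), and 2.79 (SE 0.31) with 11 libraries. All 3 passed in each of the 12 fits that left out 1 library, with an edgeR adjusted p up to 0.0161, 0.0413 and 0.0282. No member of the BCL2 family itself passed this test in either fit.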

How the results depend on the processing

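TRB with T3 replicate 2 was the library that moved the calls of the members most. Here the joint effect is TRB with T3 against the EV vehicle group, a gene or member count is of those past the threshold, and signed values are log2 fold changes. The cause of a change was not tested, except where a setting itself removes libraries or genes. Fits on 11 libraries with DESeq2 or with the compared groups alone were chosen after seeing the data. Among the alternative values of the members' log2 fold changes, 1064 kept their direction and side of the threshold, 57 passed it anew, 21 no longer passed and 75 turned sign. With each library left out in turn, genes called numbered 1256 to 4938 for the T3 effect (TRB), 10 to 1087 for the T3 effect (EV), 1 to 11 for the vector effect (vehicle), 414 to 2918 for the vector effect (T3), 875 to 4997 for the joint effect and 136 to 2259 for the interaction. Members called numbered 0 to 4 for the T3 effect (TRB), 0 to 1 for the T3 effect (EV), 0 to 2 for the vector effect (T3) and 0 to 3 for the joint effect. Fold changes that crossed 0 were those of MCL1 (-0.055 to 0.45) and BAX (-0.68 to 0.26) in the T3 effect (TRB), BBC3 (-0.098 to 0.43) and BID (-0.039 to 0.069) in the T3 effect (EV), BCL2 (-0.19 to 0.14) in the vector effect (vehicle), BCL2 (-0.63 to 0.0066), BAX (-0.91 to 0.078), PMAIP1 (-0.76 to 0.28) and BID (-0.00014 to 0.11) in the vector effect (T3), MCL1 (-0.14 to 0.39), BAX (-0.52 to 0.41) and BIK (-0.20 to 0.82) in the joint effect, BCL2 (-0.59 to 0.0082), BAK1 (-0.29 to 0.57) and PMAIP1 (-0.49 to 0.50) in the interaction. The upper end of every range of called genes and of called members came from the fit without TRB with T3 replicate 2.

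Without a filter on low counts, edgeR gave gene counts of 19 for the T3 effect (EV) and 238 for the interaction, and member counts of 0 for the T3 effect (TRB) and 0 for the joint effect. Turned signs were BCL2L11 (-0.020) in the T3 effect (EV), BID (-0.018) in the joint effect. GC offsets gave gene counts of 5411 for the T3 effect (TRB), 567 for the T3 effect (EV), 5 for the vector effect (vehicle), 3708 for the vector effect (T3), 4794 for the joint effect and 2555 for the interaction, and member counts of 5 for the T3 effect (TRB), 3 for the vector effect (T3), 6 for the joint effect and 2 for the interaction. The sign was opposite for BAX (0.019) in the T3 effect (TRB), BCL2L1 (-0.097) and BBC3 (-0.22) in the T3 effect (EV), BCL2 (0.054), MCL1 (0.012) and BAX (-0.056) in the vector effect (vehicle), PMAIP1 (-0.41) in the interaction. GC offsets on 11 libraries gave gene counts of 7016 for the T3 effect (TRB), 2287 for the T3 effect (EV), 147 for the vector effect (vehicle), 5245 for the vector effect (T3), 6597 for the joint effect and 4351 for the interaction, and member counts of 5 for the T3 effect (TRB), 2 for the T3 effect (EV), 5 for the vector effect (T3), 6 for the joint effect and 3 for the interaction. Opposite signs appeared for MCL1 (-0.12) and BAX (0.13) in the T3 effect (TRB), BCL2L1 (-0.096) and BBC3 (-0.23) in the T3 effect (EV), BCL2 (0.035), MCL1 (0.0093) and BAX (-0.055) in the vector effect (vehicle), MCL1 (-0.11), BAX (0.080) and BID (-0.11) in the joint effect, BAX (0.043) and PMAIP1 (-0.71) in the interaction. Fits of the compared groups alone gave gene counts of 634 for the T3 effect (TRB), 200 for the T3 effect (EV), 1563 for the vector effect (vehicle), 32 for the vector effect (T3) and 385 for the joint effect, and member counts of 0 for the T3 effect (TRB), 2 for the vector effect (vehicle) and 0 for the joint effect. Fits of the compared groups alone without TRB with T3 replicate 2 gave gene counts of 7352 for the T3 effect (TRB) and 7064 for the joint effect, and member counts of 6 for the T3 effect (TRB) and 4 for the joint effect. The direction differed for MCL1 (-0.056) and BAX (0.26) in the T3 effect (TRB), BAX (0.00064) in the vector effect (T3), MCL1 (-0.14) and BAX (0.41) in the joint effect. DESeq2 gave gene counts of 165 for the T3 effect (EV), 8 for the vector effect (vehicle), 1850 for the vector effect (T3) and 953 for the interaction. Members of opposite sign were BCL2 (0.0021) in the vector effect (vehicle), PMAIP1 (0.0082) in the vector effect (T3), BAK1 (-0.0025) in the interaction. DESeq2 on 11 libraries gave gene counts of 4656 for the T3 effect (TRB), 1849 for the T3 effect (EV), 60 for the vector effect (vehicle), 2886 for the vector effect (T3), 4793 for the joint effect and 2510 for the interaction, and member counts of 4 for the T3 effect (TRB), 1 for the T3 effect (EV), 2 for the vector effect (T3), 3 for the joint effect and 1 for the interaction. The fold change turned sign for MCL1 (-0.047) and BAX (0.27) in the T3 effect (TRB), BAX (0.073) in the vector effect (T3), MCL1 (-0.13) and BAX (0.42) in the joint effect, PMAIP1 (-0.48) in the interaction. RLE size factors gave member counts of 0 for the joint effect. Turned in sign were BID (0.0052) in the T3 effect (EV), BCL2 (0.0096) in the vector effect (vehicle), PMAIP1 (0.015) in the vector effect (T3).

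A replicate block gave gene counts of 18 for the T3 effect (EV). The direction turned for BCL2 (0.0056) in the vector effect (vehicle), BAK1 (-0.064) in the interaction. It also called 2278 genes for the T3 effect in TRB cells, BCL2 among them. Whether replicate numbers pair the libraries was not settled. Deviations from the group means correlated between -0.19 and 0.73 for libraries of the same number, and 7 of 12 libraries correlated best with their own number. All pairs of replicate 2 libraries were positive, from 0.12 to 0.73. Depth limits what can be said of BCL2 (6 to 60 counts per library) and BIK (0 to 23). In the fit of 11 each result of TRB with T3 rests on 2 libraries.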
